A study of Rattus norvegicus with 12 samples.

Results

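Prm1, Tnp1, Tnp2 and Hils1 encode small basic proteins that pack DNA in the heads of maturing spermatids. They were followed through 12 expression arrays of rat cells by taking every probe set annotated to 1 of these symbols and to no other gene. Each gene had 1 such probe set, so 4 probe sets stood for 4 genes among the 20832 probe sets and 14218 genes that carried a single symbol. The probe sets were 1394007_at for Prm1, 1387473_at for Tnp1, 1370022_at for Tnp2 and 1378873_at for Hils1. The arrays came from 4 groups of 3 replicates, all of the inbred Dark Agouti (DA) strain. RAH-6 and RAH-2 were androgenetic haploid embryonic stem (ES) cell lines, called RahES, whose genome derives from sperm only. DA5-3 was a diploid ES cell line. The ES cells grew in N2B27-2i medium, a serum-free medium with inhibitors that keep rat ES cells undifferentiated, and were released with trypsin. The fourth group was round sperm cells, isolated fresh and not cultured. Each ES group was 1 line, and ploidy in this series was compared through a single diploid line. The labels call the replicates biological without saying whether they were separate cultures or animals, so the p-values measure the spread between these arrays.

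During the last phase of sperm formation, spermatids replace most of their histones. Transition proteins take the place of histones first, and protamines, rich in arginine, then take the place of transition proteins and compact the DNA. Tnp1 and Tnp2 encode the transition proteins, Prm1 encodes protamine 1, and Hils1 encodes a linker histone-like protein found in the nuclei of elongating spermatids. In the mouse the messages of Prm1, Tnp1 and Tnp2 are made in round spermatids, stored without being translated, and used days later when transcription has stopped. An array reads the stored message and says nothing about the protein.

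In the RefSeq annotation of the rat assembly GRCr8, Prm1 lies at chr10:5378740-5379235 on the plus strand and Tnp2 at chr10:5386735-5387463 on the same strand. Hils1 lies at chr10:80410361-80411157 on the plus strand, and Tnp1 at chr9:82043669-82044278 on the minus strand. The 160 bases before each annotated start are printed because they were searched for an element of spermatid transcription, and differ in whether they hold it. Capitals mark each match to TGACGTCA with at most 1 mismatch, the cyclic AMP response element that CREM and CREB proteins bind, and each TATA. Both motifs read the same on the other strand, so a single pass covered both strands. The windows, from RefSeq and written 5′ to 3′ on the strand of the gene, were chr10:5378580-5378739 for Prm1, chr9:82044279-82044438 for Tnp1, chr10:5386575-5386734 for Tnp2 and chr10:80410201-80410360 for Hils1.
Prm1: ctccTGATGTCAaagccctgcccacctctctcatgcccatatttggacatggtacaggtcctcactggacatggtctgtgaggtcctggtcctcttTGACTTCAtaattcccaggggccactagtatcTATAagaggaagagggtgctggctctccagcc
Tnp1: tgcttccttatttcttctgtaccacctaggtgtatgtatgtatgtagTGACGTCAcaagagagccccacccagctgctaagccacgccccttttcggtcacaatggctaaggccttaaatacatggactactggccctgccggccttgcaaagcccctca
Tnp2: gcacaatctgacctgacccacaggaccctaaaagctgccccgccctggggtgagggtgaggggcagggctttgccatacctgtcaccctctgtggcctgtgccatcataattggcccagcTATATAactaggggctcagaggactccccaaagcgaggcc
Hils1: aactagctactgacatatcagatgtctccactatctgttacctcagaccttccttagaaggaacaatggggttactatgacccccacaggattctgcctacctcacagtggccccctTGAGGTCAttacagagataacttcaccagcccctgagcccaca
The window of Tnp1 held the exact element, beginning 113 bases before the start. That of Prm1 held 2 matches with 1 mismatch each, C4T beginning 156 bases and G5T beginning 64 bases before the start, where positions are counted from 1 at the 5′ end of the element. That of Hils1 held 1 such match, C4G, beginning 43 bases before the start. These letters were not found in the window of Tnp2, which held 2 overlapping TATA matches beginning 40 and 38 bases before its start. Prm1 held a TATA 32 bases before its start. Of 33469 rat promoter windows of the same length, 9.46% held the element with at most 1 mismatch, 1.38% held it exactly and 24.8% held TATA. A match describes the letters and is not evidence of binding.

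Prm1, Tnp1, Tnp2 and Hils1 gave strong signals on every round sperm array and signals near background on every ES cell array, haploid or diploid. Round sperm means were 64987 for Prm1, 41011 for Tnp1, 35800.1 for Tnp2 and 27246 for Hils1, whereas the highest ES cell signal of any of the 4 was 37.1. These are MAS5 signals, a weighted average over the probes of a set, scaled here to a trimmed mean of 500 on each array. A signal of 100 was taken as the floor of what could be measured. Probe sets differ in how strongly they respond, so signals were compared between samples and not between genes. A difference between such bulk samples cannot tell fewer cells of a type from less RNA per cell.

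The protamine 1 gene Prm1 read 61903, 71856 and 61201 in the 3 round sperm replicates, a mean of 64987 ± 5959 (SD, n = 3). In RAH-6 it read 20.4, 2.33 and 1.40, in RAH-2 14.7, 1.24 and 25.2, and in DA5-3 25.8, 4.96 and 37.1. The ES groups overlapped each other, and the highest ES cell array reached 0.0606% of the lowest round sperm array. Because every ES cell array was below 100, the fold is a bound, taken between the round sperm mean of log2 signals and the floor of 100: Prm1 was at least 648-fold higher in round sperm cells than in RahES, and likewise than in DA5-3. Its signal was also the maximum of the array on all 3 round sperm arrays. Scanned images were not analysed here, so whether the probes were saturated was not tested.

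The transition protein gene Tnp1 read 38757, 42059.9 and 42216 in round sperm cells, a mean of 41011 ± 1954 (SD, n = 3). In RAH-6 it read 1.84, 3.04 and 2.98, in RAH-2 1.05, 2.79 and 13.2, and in DA5-3 4.71, 1.07 and 0.9996. The last of these is the lowest value that the deposited table holds, a log2 of 0.0. Tnp1 was at least 409.8-fold higher in round sperm cells than in either kind of ES cell.

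Tnp2, the other transition protein gene, read 33909, 37332 and 36159 in round sperm cells, a mean of 35800.1 ± 1739 (SD, n = 3). In RAH-6 it read 4.26, 13.5 and 4.82, in RAH-2 2.505, 2.83 and 4.98, and in DA5-3 26.6, 3.84 and 18.8. All 3 ES groups lay far below the floor and their ranges overlapped, and Tnp2 was at least 358-fold higher in round sperm cells than in RahES or DA5-3.

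Hils1, the spermatid linker histone gene, read 27853, 26169 and 27714 in round sperm cells, a mean of 27246 ± 935 (SD, n = 3). In RAH-6 it read 7.94, 28.1 and 1.18, in RAH-2 6.06, 18.6 and 14.3, and in DA5-3 5.02, 7.25 and 11.2. It was at least 272-fold higher in round sperm cells than in RahES or DA5-3, and here too the ES groups overlapped. The round sperm replicates agreed closely for all 4 genes, with coefficients of variation of 9.17% for Prm1, 4.76% for Tnp1, 4.86% for Tnp2 and 3.43% for Hils1.

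**Figure D1:**
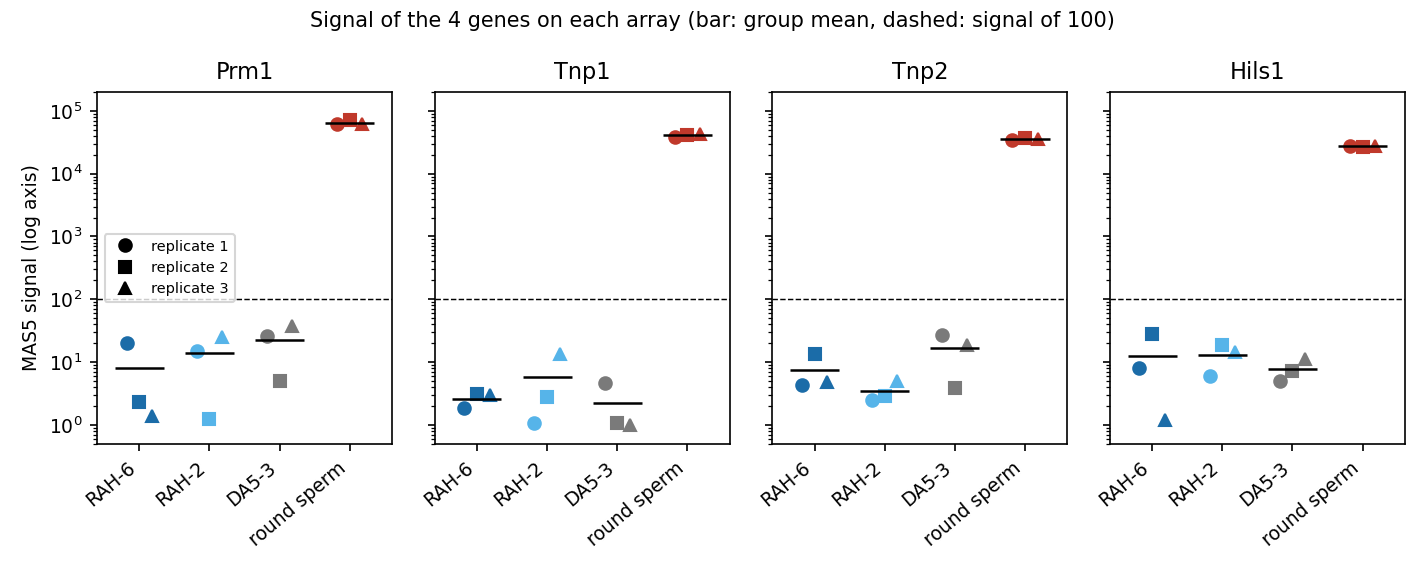
MAS5 signal on a logarithmic axis for Prm1, Tnp1, Tnp2 and Hils1 on each of the 12 arrays, by group; marker shape gives the replicate, the bar the group mean and the dashed line the floor of 100. Round sperm arrays lie between 26169 and 71856, and every ES cell array lies below the floor.

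Differences were tested with limma on log2(signal + 16), in a fit over 12 arrays and 10539 genes. The values below are differences on that scale with their standard errors. Against RahES, Prm1 was higher in round sperm cells by 11.33 ± 0.33 (limma, Benjamini-Hochberg adjusted p = 1.2e-13) and Tnp1 by 11.02 ± 0.18 (adjusted p = 3.0e-16). Tnp2 was higher by 10.72 ± 0.22 (adjusted p = 2.8e-15) and Hils1 by 9.96 ± 0.25 (adjusted p = 2.4e-14). The added 16 and the ES cell values near background set the size of these differences, and they are not fold changes of measured levels.

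Against DA5-3, the differences on the same scale were 10.82 ± 0.38 for Prm1 (limma, adjusted p = 1.3e-12) and 11.14 ± 0.20 for Tnp1 (adjusted p = 1.8e-15). They were 10.18 ± 0.25 for Tnp2 (adjusted p = 3.1e-14) and 10.17 ± 0.29 for Hils1 (adjusted p = 1.2e-13). The comparisons with RahES and with DA5-3 share the round sperm arrays and are not independent of each other. All 4 genes were called higher in each comparison, at an adjusted p below 0.05 and a log2 difference of at least 1. The background was 28.9% of all genes called higher against RahES and 29.5% against DA5-3. Round sperm cells differed from ES cells at 72.1% and 72.7% of all genes, counting both directions. Every round sperm array lay above every ES cell array of the comparison for each of the 4 genes, as it did for 36.6% of all genes against RahES and 37.4% against DA5-3. Because the 4 genes passed the filter on low signals through the round sperm arrays alone, their number called and their adjusted p-values are a description.

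Among ES cells the 4 genes could not be compared in the fit of the 9 ES cell arrays, since none reached 100 on any of them. In that fit 6.65% of 9324 genes were called between RahES and DA5-3, 3.73% higher and 2.92% lower in RahES. Between RAH-6 and RAH-2 0.804% were called, 0.611% higher and 0.193% lower in RAH-6. In the fit over 12 arrays, where round sperm cells keep them in, none of the 4 was called between RahES and DA5-3 (limma, adjusted p from 0.0592 to 0.612). Of the 4, 1 had an unadjusted p below 0.05, which was Tnp2. In the fit of the 9 ES cell arrays 62.1% of all genes had such a p in this comparison. That share was not counted for the fit over 12 arrays. RahES minus DA5-3 was -0.54 for Tnp2 (95% confidence interval -1.01 to -0.07) and -0.51 for Prm1 (-1.22 to 0.19). It was 0.12 for Tnp1 (-0.26 to 0.50) and 0.21 for Hils1 (-0.33 to 0.74). Between RAH-6 and RAH-2 the adjusted p of the 4 ranged from 0.596 to 0.854 (limma), and 0 of 4 had an unadjusted p below 0.05. The share of all genes with such a p was 33.7% in the fit of the 9 ES cell arrays. All of these signals were below the floor, so the intervals describe background and a difference between the lines was not detectable.

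Of the other genes of the protamine cluster and of histone variants, 17 symbols were listed and 8 were on the array. Of these, 6 passed the filter on low signals, 5 of them through the round sperm arrays alone, and 5 were higher in round sperm cells in each comparison and 0 lower. Of all genes, 28.9% were called higher against RahES and 29.5% against DA5-3. The median log2 difference of the 6 was 7.97 against RahES and 7.88 against DA5-3, beside -0.59 and -0.56 over all genes. As 5 of the 6 passed through the round sperm arrays alone, this count and median are a description. Prm2 encodes protamine 2, which carries its DNA-binding domain in a longer precursor. It read 18693, 18494 and 20700.0 in round sperm cells, at least 193-fold above either kind of ES cell. All 3 RAH-6 arrays (48.7 to 76.4) read above the other 6 ES cell arrays (1.52 to 32.6), but every one was below the floor. Prm3, whose product is acidic and not a DNA-packing protamine, read 15939.9, 16521 and 16844 in round sperm cells and at most 46.6 in ES cells, a bound of at least 164-fold.

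Histone variant genes of the male germ line did not all behave alike. H2bl1, an H2B-like histone gene, read 11541, 10142 and 11347 in round sperm cells and at most 68.7 in ES cells, at least 109.9-fold higher. H2ap, an H2A variant gene, read 6074, 5557 and 6533 in round sperm cells and at most 13.5 in ES cells, at least 60.4-fold higher. H2ac1, the testis H2A gene, read 162, 197 and 179 in round sperm cells. In RAH-6 it read 77.4, 136 and 121, so that 2 RAH-6 arrays were above the floor. Its difference from RahES was 1.21 ± 0.22 (limma, adjusted p = 1.0e-04) and that from DA5-3 1.11 ± 0.25 (adjusted p = 7.8e-04). The call of H2ac1 was lost in both comparisons with an offset of 64, against DA5-3 also without DA5-3 replicate 1, and the gene was not tested with a filter of 200.

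H1f6, the linker histone of spermatocytes, read 10.7, 22.8 and 37.0 in round sperm cells, and H2bc1, the testis H2B gene, read 5.10, 57.5 and 67.1. These were below 100 on every array of the series and no fold is given. H2az1, a replication-independent H2A variant gene used by most cells, read 21862, 21619 and 21589.6 in round sperm cells. It averaged 27743 ± 1333 (SD, n = 6) in RahES and 32020.5 ± 1410.1 (SD, n = 3) in DA5-3. Every round sperm array was below every ES cell array for H2az1, but the differences of -0.35 ± 0.04 and -0.56 ± 0.05 were smaller than the size required for a call.

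Around Prm1 and Tnp2 on chromosome 10, genes were looked up within 50 kb in a choice made after values had been seen. Prm2 lies at chr10:5383208-5383949 and Prm3 at chr10:5384394-5384908, between Prm1 and Tnp2. The next gene, Socs1, a feedback inhibitor of cytokine signalling, lies at chr10:5389574-5391265, its lowest coordinate 2.84 kb above that of Tnp2. Its 2 probe sets were below 100 on every array, between 6.74 and 49.5 in round sperm cells. Clec16a, a membrane protein gene farther along at chr10:5434725-5631246, read 1528, 1485 and 1459 in round sperm cells and 531 to 665 in ES cells. It was higher in round sperm cells by 1.29 ± 0.07 on the log2 scale than in RahES (limma, adjusted p = 1.9e-10). On the arrays of round sperm cells the 4 genes from Prm1 to Tnp2 were thus high and the neighbouring Socs1 was not measurable.

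**Figure D2:**
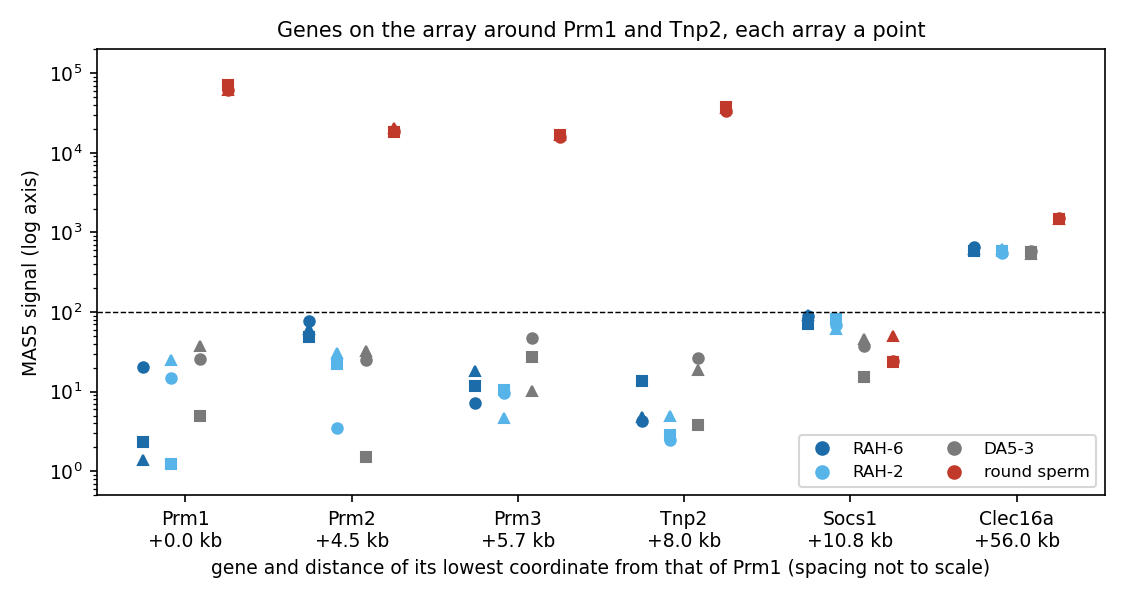
MAS5 signal on a logarithmic axis of the genes on the array around Prm1 and Tnp2, ordered by the distance of their lowest coordinate from that of Prm1, with 1 point for each array. Prm1, Prm2, Prm3 and Tnp2 each lie between 15939.9 and 71856 in round sperm cells, Socs1 lies below the dashed floor of 100 on every array, and Clec16a lies above it on every array.

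Hils1 lies within Sgca on the opposite strand. Sgca encodes a sarcoglycan of the muscle membrane and spans chr10:80397158-80416165. Sgca read 736, 818 and 902 in round sperm cells and 1.40 to 51.6 in ES cells, so it was at least 8.16-fold higher in round sperm cells than in RahES (limma, adjusted p = 1.7e-09) or DA5-3. Whether either probe set also reads the other gene was not tested. Of the other genes within 50 kb, Col1a1, a collagen gene, had 2 probe sets. The probe set with the higher mean, which represented the gene, was below the floor on every round sperm array. It was at least 2.66-fold lower there than in RahES (limma, adjusted p = 6.5e-05) and at least 59.9-fold lower than in DA5-3. Its RAH-2 arrays differed widely, at 89.2, 543 and 123. The other Col1a1 probe set read 97.0, 126 and 79.9 in round sperm cells, and averaged 152 in RahES and 1856 in DA5-3. Ppp1r9b, a scaffold protein gene, read 180.4, 233 and 251 in round sperm cells and was higher there by 1.51 ± 0.45 on the log2 scale than in RahES (limma, adjusted p = 0.00601). It read 35.8 to 118 in RahES and 10.1 to 153.6 in DA5-3, and 2 ES cell arrays reached 100. The size of its difference is thus not a fold change of measured levels. Samd14 was below 100 on every array. Tnp2 overlaps a long non-coding RNA gene on the other strand that had no probe set here, and none of the 3 RefSeq genes within 50 kb of Tnp1 was on the array.

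Genes known for removing histones were split in direction. The list held 20 symbols, of which 16 were on the array and tested, 1 of them kept through the round sperm arrays alone. Against RahES 8 were higher in round sperm cells, 6 were lower and 2 were not called, with a median of 0.53 beside -0.59 over all genes. Of all genes, 28.9% were called higher and 43.2% lower against RahES, and these shares are the background of each list. Against DA5-3 the counts were 7 higher and 6 lower, with a median of -0.12. Higher genes included Hspa2, a testis chaperone that in the mouse helps transition proteins onto DNA. It averaged 22581 ± 2434 (SD, n = 3) in round sperm cells and 313 ± 39.7 (SD, n = 6) in RahES, a log2 difference of 6.11 ± 0.12. Hspa4l, another chaperone gene, averaged 3253 ± 250.4 (SD, n = 3) in round sperm cells and was below 100 in all ES cells, at least 32.5-fold higher. Top2b, the topoisomerase that relieves DNA supercoils in elongating spermatids, was lower: it averaged 133 ± 29.9 (SD, n = 3) in round sperm cells and 2861 ± 148 (SD, n = 6) in RahES, a log2 difference of -4.29 ± 0.10. Parp1 and Parp2, which make and bind poly(ADP-ribose) at DNA breaks, were lower too, with log2 differences of -2.57 ± 0.06 and -1.88 ± 0.07. The probe sets of Cdyl, a chromodomain gene, disagreed: 1384365_at was higher by 4.999 ± 0.16 and 1374494_at was lower, with -2.99 ± 0.13.

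Of the factors of spermatid transcription, 7 of 10 listed were on the array and tested. In each comparison 5 were higher in round sperm cells and 1 was lower. The median was 2.81 against RahES and 3.34 against DA5-3, beside -0.59 and -0.56 over all genes. Of the 7, 2 passed the filter through the round sperm arrays alone, so their direction is a description. Crem, whose activator isoform is needed for Prm1 and Tnp1 transcription in the mouse, averaged 7326 ± 288 (SD, n = 3) in round sperm cells and 126 ± 20.3 (SD, n = 6) in RahES. That is a log2 difference of 5.70 ± 0.13 for 1369738_s_at. The other Crem probe sets tested were also called higher, by 3.79 (1369737_at), 3.00 (1378925_at) and 2.66 (1387714_at). Whether the probe sets separate the activator and repressor isoforms of Crem was not tested. Rfx2, a regulator of ciliary and spermatid genes, averaged 9229 ± 432 (SD, n = 3) in round sperm cells and was at least 92.2-fold above ES cells. Creb1, a relative of Crem, had probe sets that disagreed. The difference was 5.34 ± 0.22 for 1369708_a_at, a bound of at least 26.0-fold since every ES cell array was below the floor. It was 3.695 ± 0.24 for 1371291_at and -1.73 ± 0.17 for 1375655_at. Yy1, a zinc finger regulator active in most cells, was lower, at 666 ± 57.1 (SD, n = 3) against 5513 ± 419 (SD, n = 6) in RahES and a log2 difference of -3.02 ± 0.06. These values are those of 1377668_at, and the other 2 Yy1 probe sets tested were not called (-0.49 and -0.17, limma, adjusted p = 0.245 and 0.308).

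Genes of proteins that bind, store or release protamine messages were called in both directions, as genes at large were. Of 14 listed, 9 were on the array and tested, 1 of them kept through the round sperm arrays alone. Against RahES 4 were higher and 4 lower, with a median of -0.59, the same as over all genes, and against DA5-3 3 were higher and 4 lower, with a median of -0.70. Ybx2, the Y-box protein that in the mouse holds protamine messages untranslated, averaged 4362 ± 647 (SD, n = 3) in round sperm cells and 132 ± 17.9 (SD, n = 6) in RahES, a log2 difference of 4.88 ± 0.16. Papolb, a testis poly(A) polymerase gene, averaged 11051 ± 426 (SD, n = 3) and was at least 110.5-fold above ES cells. The general RNA-binding protein genes Elavl1 and Celf1 were lower, with log2 differences of -5.24 ± 0.06 and -4.18 ± 0.06. Elavl1 averaged 131 ± 14.1 (SD, n = 3) in round sperm cells against 5543 ± 361 (SD, n = 6) in RahES, and Celf1 299.5 ± 30.6 against 5704 ± 315. Of the 5 Celf1 probe sets tested, 3 were called lower and 2 were not called. Of the 3 Elavl1 probe sets tested, 2 were called lower and 1393188_at was not (-0.33, limma, adjusted p = 0.114). Tarbp2, which in the mouse is needed to translate protamine messages on time, was lower, with a log2 difference of -1.80 ± 0.08.

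Each of the called log2 differences named in the last 3 lists had an adjusted p of at most 2.0e-07 in limma. The call of Mdc1 against RahES was lost with an offset of 64, that of Ptbp2 with an offset of 64 or without round sperm replicate 1, and Kdm3a was called lower with quantile normalization. Against DA5-3, Ptbp2 was called higher with median centring or quantile normalization. Of 18 listed genes with more than 1 probe set tested, 4 were called in opposite directions by different probe sets: Cdyl, Creb1, Eif4e and Psme4.

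**Figure D3:**
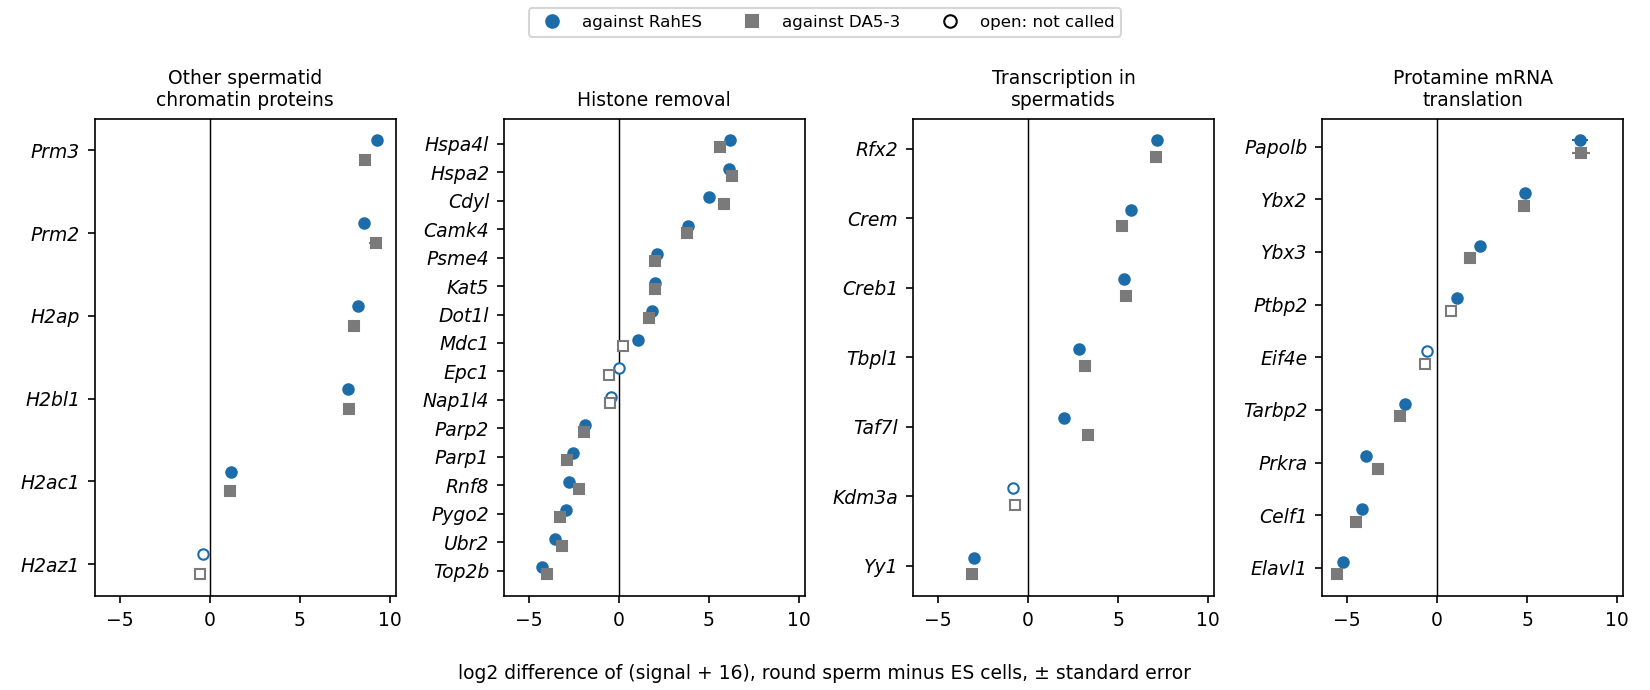
Differences in log2(signal + 16) between round sperm cells and RahES (blue circles) or DA5-3 (grey squares) with standard errors, for every tested gene of the 4 lists; open symbols were not called. Other spermatid chromatin proteins lie at or to the right of 1 apart from H2az1, and the other lists span both directions.

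Between RahES and DA5-3, Taf7l was the gene called among the 1, 15, 6 and 8 genes tested in these 4 lists. Over all genes of that fit, 6.65% were called and 3.73% were called higher in RahES. Taf7l, a germ cell form of a general transcription factor subunit, averaged 952 ± 81.8 (SD, n = 3) in round sperm cells, 224 ± 36.8 (SD, n = 6) in RahES and 79.4 ± 5.76 (SD, n = 3) in DA5-3. RahES exceeded DA5-3 by 1.32 ± 0.12 (limma over the 9 ES cell arrays, adjusted p = 1.3e-06). None of 15 histone removal genes and none of 8 translation genes tested there was called, and 10 and 6 of them had an unadjusted p below 0.05. Of all 9324 genes, 62.1% had such a p. Between RAH-6 and RAH-2, 0 genes of the 4 lists were called by limma, with 7 of 15 histone removal genes, 3 of 6 transcription genes and 5 of 8 translation genes at an unadjusted p below 0.05, beside 33.7% of all genes.

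The round sperm arrays carried the markers of round spermatids that their label implies, and also some markers of other testis cells. All 14 round spermatid markers on the array reached 100 on every round sperm array, led by Oaz3, Smcp and Ldhc, and their summed signal was 269874 to 280309.6 against 559 to 1209 on ES cell arrays. All 6 spermatocyte markers did too, led by Sycp3, Ccna1 and Smc1b, with a sum of 31985 to 35960.1. In ES cells that sum was 2804 to 3525 in RahES and 873 to 939 in DA5-3. Of 9 spermatogonial markers, 5 reached 100, led by Id4, Gfra1 and Uchl1. Kit, Sohlh1, Nanos3 and Lin28a were below 100 on every round sperm array. The sum of the 9 was 2283 to 2510.4 against 3861 to 5709 in ES cells. Of 7 tested against RahES, 4 were called higher in round sperm cells and 3 lower, with Uchl1 among the lower (log2 difference -1.29).

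Some somatic markers were measurable at lower signals. Of 10 Sertoli cell markers, 4 reached 100 in round sperm cells, led by Vim, Cldn11 and Clu. Amh, Gata4, Inhbb, Inha, Rhox5 and Gata1 were below 100 on every round sperm array. The sum of the 10 was 1484 to 1674 against 14068 to 22026 in ES cells. Of 8 tested against RahES, 3 were called higher in round sperm cells, Cldn11, Clu and Wt1, and 2 lower. Vim was not called against RahES (log2 difference -0.69, limma, adjusted p = 0.0971). Against DA5-3, 2 of the 8 were called higher in round sperm cells, Cldn11 and Clu, and 4 lower, among them Vim (log2 difference -3.63). Of 6 Leydig cell markers, 5 had a mean of at least 100, led by Insl3, Hsd3b1 and Cyp17a1, with a sum of 708 to 1030.2 against 98.4 to 195 in ES cells. The 3 tested were called higher in each comparison, and all 3 passed the filter through the round sperm arrays alone. Of 10 blood and macrophage markers, 7 had a mean of at least 100, led by Hbb, Lyz2 and C1qa, with a sum of 3696 to 4012 against 503 to 966 in ES cells, and Ptprc was below 100 on every array. Limma called 6 of 8 tested higher in round sperm cells and 1 lower in each comparison. Through the round sperm arrays alone, 6 of these 8 passed the filter. Of the pluripotency genes, Klf4, Fbxo15 and Esrrb had the highest round sperm signals, and Sox2, Tfcp2l1 and Sall4 were below 100 there. The part of these other cells in the results above was not tested.

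**Figure D4:**
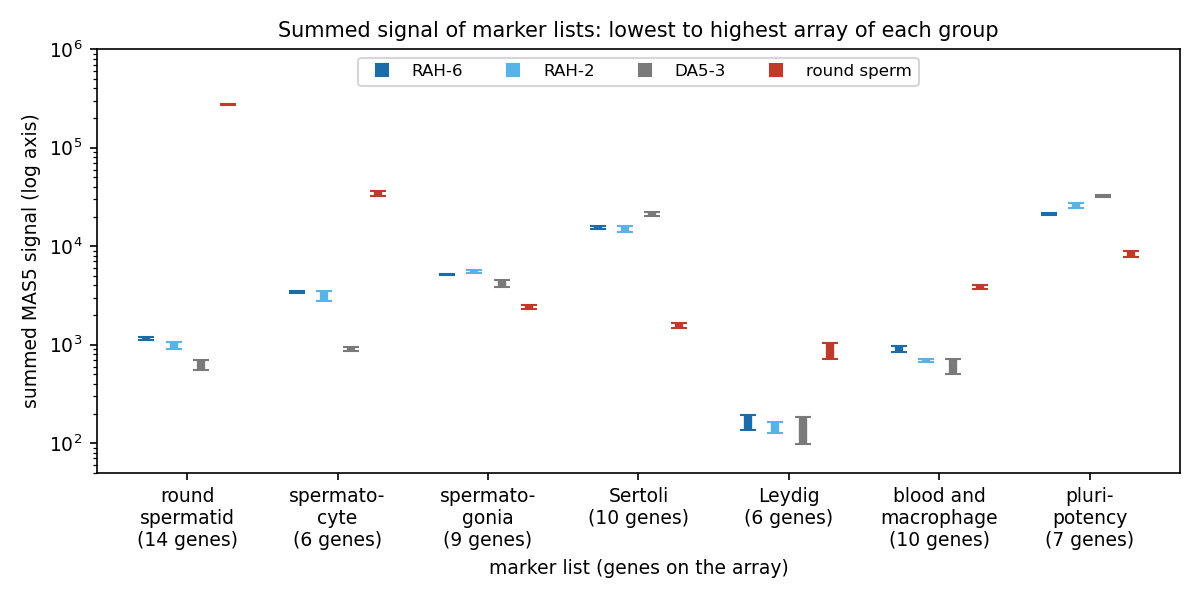
Summed MAS5 signal on a logarithmic axis of 7 marker lists, drawn from the lowest to the highest array of each group of 3. Round spermatid markers sum to 269874 to 280309.6 in round sperm cells, and spermatogonial, Sertoli cell and pluripotency markers sum to less there than in any ES group.

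The ratio of 3′ to 5′ Gapdh probe sets, a sign of RNA quality, averaged 2.18 on round sperm arrays, against 1.14 (RAH-6), 1.26 (RAH-2) and 1.47 (DA5-3) in the ES lines. That of beta-actin averaged 4.09 on round sperm arrays, within the range of 3.09 to 6.19 of the ES groups. Signals reached 100 at 41.5% of probe sets on round sperm arrays and at 47.7% to 48.6% on ES cell arrays. The part of RNA quality in the differences was not tested. Over all genes the median difference from RahES was -0.59 on the log2 scale, which moved to 0.08 with median centring and to -0.25 with quantile normalization. Of the genes called against RahES 40.1% were higher, and 52.3% with median centring or 45.5% with quantile normalization. Against DA5-3 these shares were 40.5%, 51.1% and 46%.

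The 4 genes followed each other over the 12 arrays, with Pearson's r of log2(signal + 16) between any pair from 0.98997 to 0.997. These correlations are a description over 12 arrays that fall into 2 kinds of sample, and many genes shared the pattern: 463 genes of 10528 had an r of at least 0.99 with Prm1, 867 with Tnp1, 696 with Tnp2 and 680 with Hils1. The 5 genes most like Prm1 were Cfap36 (r = 0.998), Ccnyl1, Ttll5, Elof1 and Tmbim7. Those most like Tnp1 were Rhbdd1 (r = 0.9997), Fam50b, Ccno, Cfap299 and Akap4. Those most like Tnp2 were Nol8 (r = 0.999), Glrx2, Arl9, Mthfs and Hmox2, and those most like Hils1 were Aqp11 (r = 0.999), Tekt3, Itih3, Dmac2l and Tent5c. Being most like a gene on this measure did not require silence in ES cells: Elof1 reached 4263 on an ES cell array and averaged 17646 ± 286 (SD, n = 3) in round sperm cells, whereas Rhbdd1 reached at most 6.31 and averaged 1667 ± 114 (SD, n = 3).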

How the data were processed

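RNA of 3 replicates each of RAH-6, RAH-2, DA5-3 and round sperm cells was extracted with Trizol and hybridised as biotin-labelled cRNA to 12 Affymetrix arrays, per the labels' protocols. The values that the authors deposited were MAS5 signals, per the submitters' processing notes, and stood on a log2 scale from 0.0 upwards, as the values show. The version of MAS5 is not given in the sources used here. Scanned images and a deposited report file whose array names match no sample label were not used. No 2 arrays were identical (66 pairs). Precision is limited by the number of arrays.

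Signals were returned to the linear scale, scaled to a trimmed mean of 500 (2% cut at each end) and tested as log2(signal + 16) with limma 3.58.1 in R 4.3.3, with a variance trend on mean signal. Probe sets were kept at a signal of at least 100 in at least 3 arrays, and a gene was represented by its probe set with the highest mean. RahES is the mean of RAH-6 and RAH-2 with equal weight. Comparisons with round sperm cells used 12 arrays and those among ES cells the 9 ES cell arrays. Calls required a Benjamini-Hochberg adjusted p below 0.05 and a log2 difference of at least 1 in size. The procedure was tested on simulated data. Of 31099 probe sets, 20832 named 1 gene, 436 several and 9831 none in the platform annotation. RefSeq for GRCr8 matched 20764 of the 20832 and changed 0 symbols.

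The 4 genes and all lists, which come from general knowledge, were chosen with earlier results of these data known. Named besides the 4 genes were up to 4 called members of each pathway list with the largest difference from RahES, every spermatid chromatin gene on the array, up to 3 markers of each cell type list with the highest round sperm signal, and the 5 genes most correlated with each of the 4. Genes near the 4, and Parp1, Parp2, Tarbp2, Taf7l and those whose call moved, were named after their values were seen. Alternatives covered the offset, the filter, scaling, the variance model, probe sets, the arrays fitted, the replicate number and each array left out. Figures were drawn with matplotlib 3.10.9.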

Additional observations from a re-analysis of the deposited data

How the results depend on the processing

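Prm1, Tnp1, Tnp2 and Hils1 were called higher in round sperm cells, 4 of 4, in all 23 alternatives run for each comparison with round sperm cells. They passed the filter through the round sperm arrays alone, so this count and their adjusted p against ES cells are a description. Of all genes, 28.9% were called higher against RahES and 29.5% against DA5-3 with the main settings. Some alternatives could not move a difference: leaving out a DA5-3 array does not change the differences from RahES. Among ES cells the 4 genes passed the filter in 2 alternatives alone, without a filter and with all 12 arrays. In each, 0 of 4 were called by limma. On the 9 ES cell arrays 62.1% of all genes had an unadjusted p below 0.05 between RahES and DA5-3 with the main settings. Among the 4 genes, Tnp2 alone had such a p, in that comparison with 12 arrays (limma, 0.0262). Against RahES their log2 differences ranged from 9.77 to 13.5 for Prm1, 9.24 to 13.8 for Tnp1, 9.01 to 12.9 for Tnp2 and 8.48 to 11.6 for Hils1, and against DA5-3 the highest adjusted p of any was 7.2e-07 (limma). Without the filter, on the 9 ES cell arrays, their adjusted p was 0.148 to 0.740 between RahES and DA5-3. The number of genes called between RahES and DA5-3 was 620, and 407 with an offset of 64. Between RAH-6 and RAH-2 it was 75, and 26 with an offset of 64, 113 without a filter and 47 with a filter of 200. Leaving out 1 array at a time gave 48 (without RAH-2 replicate 1) to 127 (without RAH-2 replicate 2) there, 604 to 650 between RahES and DA5-3, 7584 to 7618 between round sperm cells and RahES and 7620.0 to 7659 against DA5-3. The cause of these shifts was not tested. Replicate numbers did not pair the arrays: in 18 pairs of the same number the correlation of deviations from group means was -0.07 to 0.06, 0 of them above 0.1. With the replicate number as a block, 7597 genes were called between round sperm cells and RahES, 7660 against DA5-3, 620 between RahES and DA5-3 and 77 between the haploid lines. The 4 genes stayed called against both kinds of ES cell and were not tested among ES cells with the block. The signal floor limits these results: at 3 arrays a group, levels below 100 in ES cells could not be ordered, and folds against them are bounds.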
